A study of Mus musculus with 2 samples.

Results

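The genes described here are those of the cytosolic ribosomal proteins, taken by name: every gene called Rpl or Rps followed by a number and at most further letters and digits, with Rplp0, Rplp1, Rplp2 and Rpsa, and without pseudogene names. The name rule took 96 of the 32285 genes in the files. Of these, 77 encode the core proteins of the ribosome and 8 encode paralogs of them: Rpl39l, Rpl22l1, Rpl10l, Rpl3l, Rpl7l1, Rpl36al, Rps27l and Rps27rt. The other 11 share only the name: 10 kinases named after ribosomal protein S6 (Rps6ka1 to Rps6ka6, Rps6kb1, Rps6kb2, Rps6kc1 and Rps6kl1) and Rps19bp1, which encodes a protein that binds RPS19. Fau and Rack1, which also encode ribosomal proteins, fall outside the name rule and are given once below.

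The cells were established mouse THY-1+ germ cells, cultures enriched for spermatogonial stem cells that were started from C57 LacZ pups, with STO fibroblasts of the mouse as feeders. The control library received 0 ng/ml FGF and the FGF9-treated library 20 ng/ml FGF9, each for 48 h, and RNA of single cells was counted with droplet sequencing of 3′ ends. The labels give both the same culture medium with GDNF at 20 ng/ml, GFRA1 at 150 ng/ml and FGF2 at 1 ng/ml, for passages 9 to 12 (another label of the FGF9-treated library gives 9 to 13), without saying whether these factors stayed in during treatment, while the study's methods describe cells of passage 12 and medium with FGF9 or albumin. There was 1 library per treatment, each from cells pooled over several mice, so no test between treatments exists; every interval below is a 95% interval of counting error only, and "higher" or "lower" describes these libraries.

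The ribosome of the cytosol is built from a small and a large subunit, each of them ribosomal RNA dressed with proteins named Rps or Rpl, and nearly every protein is present once per ribosome, so the genes are known for being expressed together. Their mRNAs are known to begin with a run of pyrimidines, the 5′ TOP motif, through which growth signals set their translation. The genes Rpl10, Rpl36a, Rpl39 and Rps4x lie on the mouse X chromosome, and male germ cells, which silence the X chromosome in meiosis, are known to use autosomal copies such as Rpl10l and Rpl39l.

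The pair Rpl39 and Rpl39l carries the main contrast below, so their coding sequences are shown, from GENCODE M21 transcripts on GRCm38, with capitals at the bases that differ. Rpl39 lies on the minus strand of chrX:37082520-37085402 and Rpl39l on the plus strand of chr16:10170226-10174911, and each encodes 51 residues.
Rpl39: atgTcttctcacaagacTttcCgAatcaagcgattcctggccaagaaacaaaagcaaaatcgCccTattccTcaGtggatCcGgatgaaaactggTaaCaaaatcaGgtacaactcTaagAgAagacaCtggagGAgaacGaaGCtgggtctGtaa
Rpl39l: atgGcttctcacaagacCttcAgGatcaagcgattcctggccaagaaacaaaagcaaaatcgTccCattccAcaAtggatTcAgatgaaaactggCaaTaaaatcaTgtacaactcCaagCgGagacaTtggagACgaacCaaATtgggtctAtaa
Of 156 aligned bases 133 were identical (85.3%) and 23 differed. None of the 50-base windows in the last 400 bases of either transcript occurred in a transcript of another gene in the files. Reads from the 3′ end of each gene could therefore be told from the other's. Genes outside the files and the rest of the genome were not searched.

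Counts were summed over the cells of each library that had at least 2000 genes detected, at most 20% mitochondrial UMIs and fewer than 40 UMIs of Vim and S100a6 together, which mark the feeders. A UMI is a molecular tag that counts 1 captured mRNA. The filter kept 4157 of 5312 control barcodes with 67689739 UMIs and 4537 of 5959 FGF9-treated barcodes with 67068085 UMIs, with medians of 14824 and 13067 UMIs per cell. No kept cell of either library had 30 to 39 UMIs of the feeder pair, and 2 barcodes in each library had 40 to 49. The libraries shared 11 barcode sequences, 10 of them among the kept cells. The germ cell genes Ddx4 and Dazl were found in control cells at 437 and 1729 CPM (UMIs scaled to the same library total) and in FGF9-treated cells at 426 and 1823 CPM. Of the other 5 germ cell markers, Tex101 and Sall4 had ratios (log2, FGF9-treated over control) of 0.01 and -0.04, while Gfra1 (16.5 and 58.6 CPM) and Ret (34.9 and 104 CPM) were higher in FGF9-treated cells and Zbtb16 (166 and 143 CPM) was lower. Of 8 feeder markers in the kept cells, Col1a2, Acta2 and Thy1 stood below 1 CPM in both libraries, and the 8 summed to 162.0 and 195.3 CPM, against 12521 and 17321 CPM in barcodes above the feeder limit. Vim (3.65 and 18.5 CPM), S100a6 (7.67 and 16.0 CPM) and Lgals1 (95.3 and 136.5 CPM) were higher in FGF9-treated cells, and Col1a1 (22.3 and 12.3 CPM) and Timp2 (32.0 and 10.4 CPM) were lower.

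The core ribosomal protein genes held a closely similar share of the RNA in both libraries. They gave 15.4% of UMIs in control cells (15.42 to 15.44) and 15.7% in FGF9-treated cells (15.70 to 15.71), and all 77 genes were detected in each. From cell to cell the share was wider than this difference, with a median of 15.1% and quartiles of 13.4% and 17.2% in control cells and a median of 15.5% with quartiles of 13.5% and 17.8% in FGF9-treated cells. The quartile ranges of the libraries therefore overlapped over nearly their whole width.

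Each ratio below is the log2 of the CPM in FGF9-treated cells divided by that in control cells, and 6616 genes with a mean of at least 20 CPM over the libraries were compared. Of the 77 core genes 76 reached this mean, Rpl10 being the exception. Their median ratio was 0.03, with quartiles of -0.03 and 0.10, beside a median of -0.03 with quartiles of -0.17 and 0.11 over all genes compared. Of the 76, 50 had ratios above 0 and 26 below, and 71 lay within 0.2 of 0. Of all 6616 genes compared 2956 had ratios above 0 and 4157 lay within 0.2 of 0. With the TMM scaling of edgeR, which sets the bulk of genes to 0, 59 lay above 0 and 17 below. The SD of the ratios over the core genes was 0.17, and 0.10 without Rpl39. Over the 1847 genes outside the name rule with a mean of at least 100 CPM it was 0.25, with no gene left out. Of these 1847 genes 1307 lay within 0.2 of 0. The ribosomal protein genes thus lay close together, with Rpl39 far outside the others.

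Past a ratio of 0.25 in the higher direction there were 4 core genes (Rpl39, Rps29, Rpl11 and Rps28), while 11.9% of all genes compared passed this limit. In the lower direction there were 0, against 15.7% of all genes. Past 0.5 there was 1, Rpl39, against 4.02% of all genes in the higher direction, and it also passed 1.0, as did 1.03% of all genes. Past -0.5 and past -1.0 there were 0 core genes, against 4.08% and 0.529% of all genes. The plot of the core genes in order of their ratio shows this distance.

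**Figure D1:**
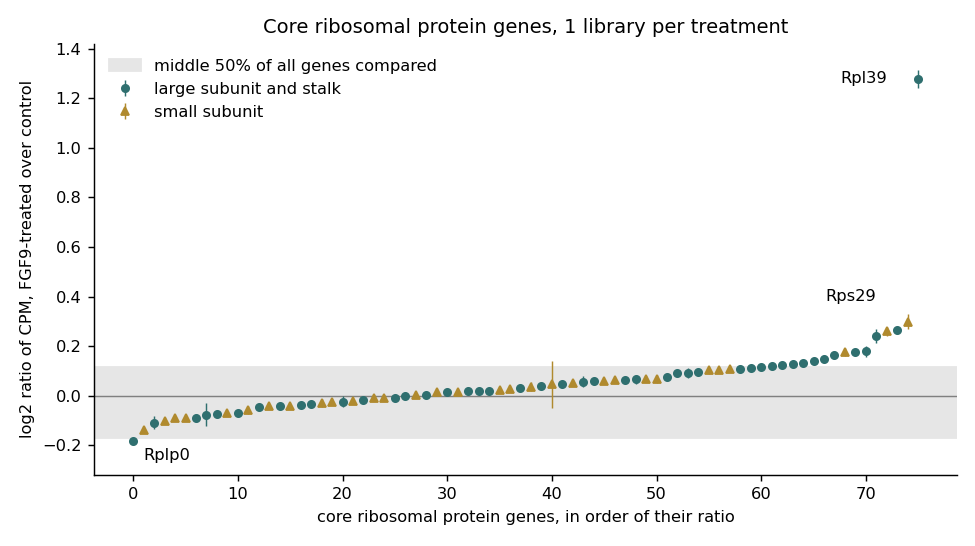
Each point is 1 of the 76 core ribosomal protein genes with a mean of at least 20 CPM, placed along the horizontal axis in order of its log2 ratio, FGF9-treated over control (vertical axis), with its 95% counting interval. The grey band spans the quartiles of all 6616 genes compared (-0.17 to 0.11); Rpl39 stands at 1.28, while the next gene, Rps29, is at 0.30 and the lowest, Rplp0, at -0.18.

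Rpl39, a protein of the large subunit near the exit of the nascent chain tunnel, gave 8111 UMIs in the control library and 19502 in the FGF9-treated library. This was a level of 119.8 CPM (117.2 to 122.5) beside one of 290.8 CPM (286.7 to 294.9), a 2.43-fold difference with a log2 ratio of 1.28 (1.24 to 1.32). Among all 6616 genes compared, 32 had a higher ratio. Among the core genes none came near it.

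The difference in Rpl39 was also seen in how many cells carried it. After each cell was thinned to 5000 UMIs, without the 16 and 22 cells that had fewer, 39.4% of control cells (37.9 to 40.9) and 72.7% of FGF9-treated cells (71.4 to 74.0) had an Rpl39 UMI. Without thinning the shares were 68.9% and 92.8%. A cell type that lacks Rpl39 was not at hand as a measure of free RNA, since the gene was found in every feeder barcode. The median cell had 1 Rpl39 UMI in control (quartiles 0 and 3) and 4 in FGF9-treated cells (quartiles 2 and 6), and the highest count was 25 in both. Cells with no Rpl39 UMI made up 31.1% of control cells (29.7 to 32.5), where 17.8% would be at 0 if every cell carried Rpl39 at the same rate per UMI. In FGF9-treated cells they made up 7.23% (6.49 to 8.02), where 3.61% would be at 0. In both libraries Rpl39 was thus spread over the cells more unevenly than counting alone gives. This was not particular to Rpl39. Cells at 0 for Rpl39l made up 1.23% of control cells, where 0.38% would be at 0, and 1.92% of FGF9-treated cells, where 0.85% would be. For Rps29 they made up 7.14% of control cells (6.38 to 7.97), where 5.62% would be. In FGF9-treated cells they made up 5.05% (4.43 to 5.72), an interval that holds the 4.79% that would be at 0.

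**Figure D2:**
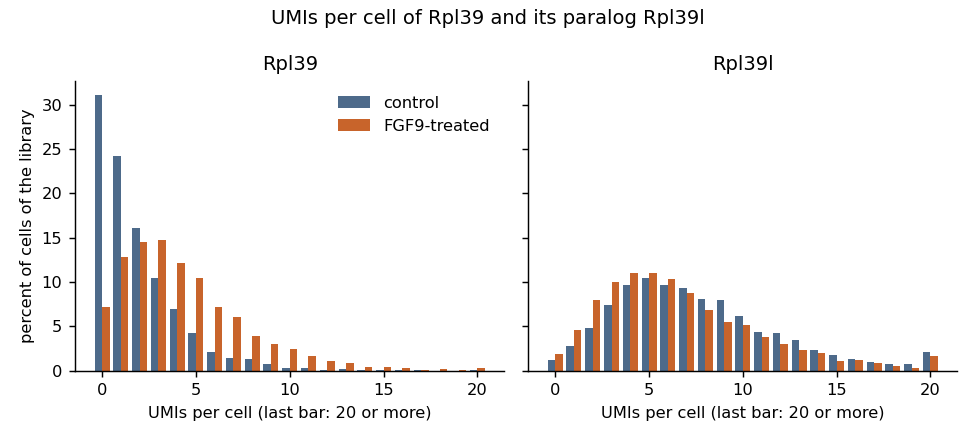
Bars give the percent of kept cells (vertical axis) with each number of UMIs (horizontal axis, the last bar holding 20 or more) for Rpl39 on the left and its paralog Rpl39l on the right, in control and FGF9-treated cells. For Rpl39 the control cells gather at 0 and 1 UMIs (31.1% at 0) and the FGF9-treated cells around 2 to 5 (7.23% at 0), while for Rpl39l both libraries have medians of 6 or 7 UMIs.

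Rpl39 was higher in FGF9-treated cells in every group of cells examined, the groups being made by whether a thinned cell had a UMI of a marker gene or by depth. Its ratio was 0.98 (0.77 to 1.19) in cells with a UMI of the proliferation gene Mki67 and 1.41 (1.34 to 1.48) in cells without. It was 0.84 (0.65 to 1.04) in cells with a UMI of Gfra1, the GDNF receptor gene of undifferentiated spermatogonia, and 1.36 (1.29 to 1.43) in cells without. Gfra1-positive control cells stood at 165 CPM of Rpl39 and Gfra1-negative ones at 120 CPM, whereas in FGF9-treated cells the levels were 295 and 307 CPM. Thinned cells with a Gfra1 UMI numbered 304 in the control and 1114 in the FGF9-treated library, and those with a Kit UMI 248 and 58, so a group need not hold the same kinds of cells in both libraries. Cells with a UMI of Neurog3, a progenitor gene, had a ratio of 1.45 (1.26 to 1.65), cells with a Kit UMI 1.06 (0.67 to 1.45), cells with a Stra8 UMI 1.13 (0.74 to 1.53) and cells with a UMI of the p53 target Ccng1 1.10 (0.95 to 1.26). Over tertiles of depth the ratio was 1.17, 1.35 and 1.22 from the shallowest to the deepest cells. Markers and depth therefore moved the size of the ratio but not its direction.

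**Figure D3:**
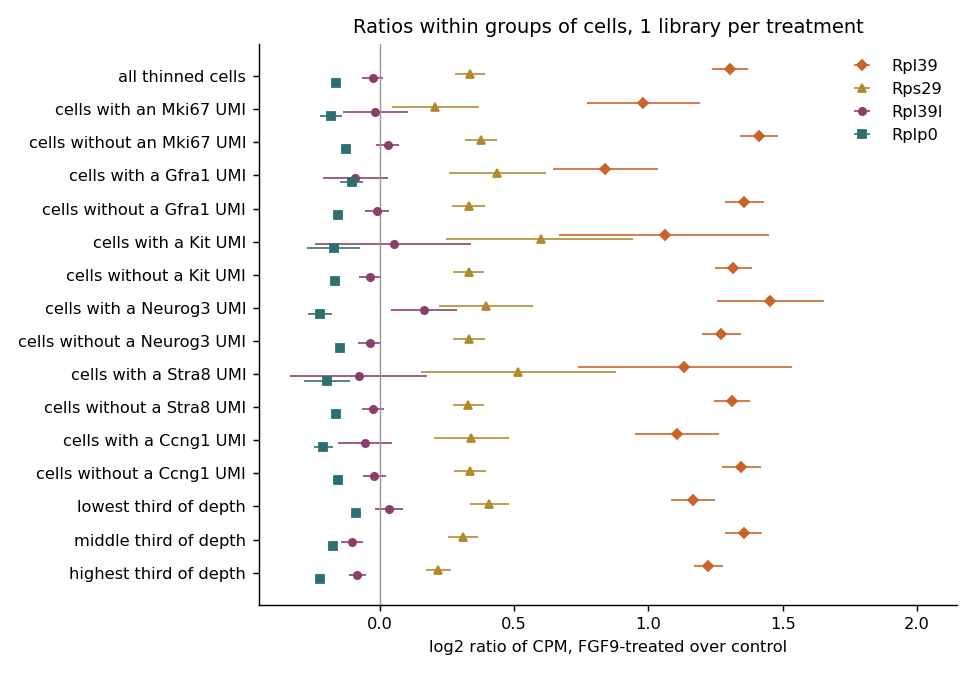
Points give the log2 ratio, FGF9-treated over control, (horizontal axis) with 95% counting intervals for Rpl39, Rps29, Rpl39l and Rplp0 within groups of cells (vertical axis), which are cells with or without a UMI of the named marker after thinning to 5000 UMIs and tertiles of depth without thinning. Rpl39 lies between 0.84 and 1.45 in all of them, Rps29 above 0 and Rplp0 below 0 in all of them, and Rpl39l at both sides of 0.

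The feeders carried much more Rpl39 than the germ cells. Barcodes at or above the feeder limit that passed the other filters numbered 31 in control and 63 in FGF9-treated cells. Rpl39 stood there at 1919 CPM (1817 to 2025) and at 2574 CPM (2502 to 2648), which on the log2 scale is 4.001 and 3.15 above the kept cells of the same library. It had the largest such difference of the 77 core genes in both libraries, ahead of X-linked Rps4x at 2.35 and 2.81. The paralog Rpl39l stood at 107 and 26.3 CPM in the feeder barcodes, below its level in the kept cells. Vim, S100a6 and Lgals1 were higher with Rpl39 in the FGF9-treated kept cells, as given above, and their part in its ratio was not tested. Rpl39 kept a ratio of 1.28 when the feeder limit was lowered to 10 UMIs. This limit acts per barcode and cannot remove free feeder RNA spread over cells, so it does not test that part.

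Other core genes also differed between feeder barcodes and germ cells. In both libraries 4 of the 77 core genes were more than 1 higher on the log2 scale in the feeder barcodes (Rpl39, Rps4x, Rpl9 and Rpl10). In the other direction 4 were more than 1 lower (Rps18, Rpl29, Rps2 and Rpl35a). The share of all genes past this limit was not computed, so these counts cannot be called many or few. Of the higher ones, Rpl10 rested on 13 and 28 feeder UMIs, with intervals that reached below 1 in both libraries. Rpl9 stood at 1.004 (0.76 to 1.24) in the control library. Both genes share all their 3′ windows with another gene, a limit given below. Of the lower ones, Rps18 shares 74.6% of its 3′ windows with other genes in the files, Rpl29 27.1%, and Rps2 and Rpl35a 0%. Rps2, a small subunit protein whose mRNA served as the reference in the study's PCR, stood at 263 and 87.5 CPM in feeder barcodes and at 969 and 949 CPM in kept cells. The germ cell gene Dazl stood at 270 and 102 CPM in feeder barcodes and at 1729 and 1823 CPM in kept cells. Germ cell RNA in the feeder barcodes may enter these feeder values, which was not tested. How reads of the feeder line aligned was not examined either, so a low count there need not be low expression. Between the treatments Rps2 differed little in the kept cells, with a ratio of -0.03 (-0.05 to -0.01) that was 0.0035 with TMM scaling.

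After the values were seen, the genes around Rpl39 on the X chromosome were looked at. All 5 other genes compared within 300 kb of it were also higher in FGF9-treated cells, with ratios past 0.25. Of all 6616 genes compared 2956 had ratios above 0 and 11.9% passed 0.25. Of the 215 X chromosome genes compared 116 had ratios above 0 and 43 passed 0.25. Upf3b, 6.28 kb away on the same strand and encoding a factor of nonsense-mediated decay, had 11.2 CPM in the control library against 55.0 CPM with FGF9, a ratio of 2.30 (2.18 to 2.41), and a UMI of it was found in 14.1% and 47.5% of kept cells. Nkap, at 41.4 kb, had a ratio of 0.67 and Ndufa1, at 102 kb, a ratio of 0.27. On the other side Ube2a, at 198 kb, had a ratio of 0.48 and Slc25a5, the adenine nucleotide carrier at 284 kb, a ratio of 0.84.

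The next genes compared were Akap17b (-0.02) and Pgrmc1 (0.09) on one side and Rhox10 (0.29) and Rhox13 (0.06) on the other, 437 to 1036 kb from Rpl39. Upf3b, at 11.2 and 55.0 CPM, and Rhox10, at 18.2 and 22.3 CPM, reached the mean of 20 CPM only through the FGF9-treated library. The median over the 5 neighbours, Upf3b included, was 0.67, and the neighbours other than Upf3b had ratios from 0.27 to 0.84. Among the 59 core genes with at least 3 genes compared within 300 kb this median was the highest. The second was Rps29 at 0.28, and the median of these 59 values was -0.07. The region was looked at after its values were seen, so this rank is a description only. Over all 215 X chromosome genes compared the median was 0.03. Upf3b was at 69.3 and 102.5 CPM in the feeder barcodes.

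**Figure D4:**
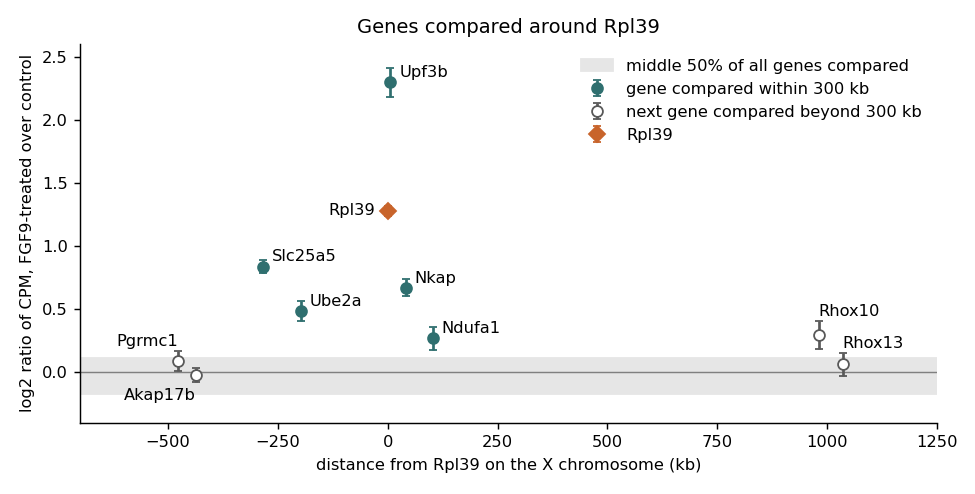
Points give the log2 ratio, FGF9-treated over control, (vertical axis) with 95% counting intervals against distance from Rpl39 in kb (horizontal axis), for Rpl39, the 5 genes compared within 300 kb and the next 2 beyond on each side; the grey band spans the quartiles of all genes compared. Rpl39 (1.28) and its neighbours, from Ndufa1 (0.27) to Upf3b (2.30), lie above the band, and Akap17b, Pgrmc1 and Rhox13 lie within it.

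After Rpl39 the highest ratios among core genes were far smaller. Rps29 had 212.6 CPM in the control library and 261.5 CPM with FGF9, a ratio of 0.30 (0.27 to 0.33). Rpl11, which binds 5S ribosomal RNA together with Rpl5 and is known as a sensor that restrains MDM2, stood at 1194 and 1433 CPM with a ratio of 0.26 (0.25 to 0.28). Rps28 had a ratio of 0.26 (0.24 to 0.28), Rpl38, known for its part in translation of Hox mRNAs, 0.24 (0.21 to 0.27) and Rpl29 0.18 (0.16 to 0.20). Rpl5, the partner of Rpl11, had a ratio of 0.12 (0.11 to 0.13).

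Of the 5 core proteins of at most 70 residues, Rpl39 (51 residues), Rps29 (56), Rps28 (69) and Rpl38 (70) were 4 of the 5 highest ratios, and Rpl41, the shortest at 25 residues, was among the lowest at -0.09 (-0.11 to -0.07). Their median ratio was 0.26, beside 0.03 for the 71 longer proteins. This is a description of a small set, and Rpl41 shares 66.7% of its 3′ windows with Gm10076. The sum over both had a ratio of -0.09 (-0.10 to -0.07), as Rpl41 had alone.

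The lowest ratios were small. Rplp0, the base of the ribosomal stalk, had 4143 CPM (4128 to 4158) without FGF9 and 3653 CPM (3638 to 3667) with it, a ratio of -0.18 (-0.19 to -0.17). Its stalk partners Rplp1 and Rplp2 had ratios of -0.05 (-0.05 to -0.04) and -0.07 (-0.08 to -0.06). Rps12 had a ratio of -0.14 (-0.15 to -0.13), X-linked Rpl36a -0.11 (-0.14 to -0.08), Rps19 -0.10 (-0.11 to -0.09) and Rps20 -0.09. These differences were larger than counting error, and none of them reached 0.25 in size. Rps6, the substrate of the S6 kinases, stood at 1372 and 1473 CPM, a ratio of 0.10 (0.09 to 0.12).

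The subunits did not part from each other by much. The 45 genes of the large subunit and its stalk that were compared had a median ratio of 0.06 and the 31 of the small subunit a median of 0.02. Of the X-linked genes, Rps4x had a ratio of 0.04 (0.02 to 0.06), Rpl36a one of -0.11 and Rpl10 one of -0.18 (-0.37 to 0.02) on only 472 and 414 UMIs, so that Rpl39 was the only one of the 4 past 0.25. All 50-base windows at the 3′ end of Rpl10 also occur in Rpl10-ps3, whose reads cannot be told from it, and the sum over both was 12.6 and 13.2 CPM with a ratio of 0.07 (-0.07 to 0.21). The same holds in full for Rpl9 and for at least 50% of the windows of Rps27, Rpl35, Rpl36a, Rps18 and Rpl41, whose values carry this limit. How shared reads were treated in the deposited counts was not examined, so a sum over copies need not hold them all. The 70 compared core genes with fewer windows shared with genes in the files had a median of 0.04.

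The paralogs showed no counterpart to the difference in Rpl39. Rpl39l had 474 CPM (469 to 480) without FGF9 and 455 CPM (450 to 460) with it, a ratio of -0.06 (-0.08 to -0.04), and 87.8% and 87.3% of thinned cells had a UMI of it (98.8% and 98.1% without thinning). In the feeder barcodes, which showed 35.5% and 30.2% unthinned at median depths of 20517 and 26481 UMIs, the share was lower. These barcodes also held germ cell RNA, as given above. The ratio of Rpl39l minus that of Rpl39 was -1.34 (-1.38 to -1.30). The germ cells of both libraries thus carried the autosomal copy at nearly the same level, and differed in the X-linked gene.

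Rpl22l1, a paralog whose mRNA is known to be restrained by the Rpl22 protein, stood at 1810 CPM (1800 to 1821) in the control library and at 1776 CPM (1766 to 1786) in the other. Its ratio was -0.03 (-0.04 to -0.02), and that of Rpl22 was 0.03 (0.02 to 0.05). The sign of the Rpl22l1 ratio depended on the scaling, being 0.0058 with TMM, and on the cells taken. It was -0.17 (-0.24 to -0.11) in cells with an Mki67 UMI and 0.11 (0.09 to 0.13) in cells without. In each library the Mki67-positive cells had the lower level, with 1461 against 1846 CPM in the control library and 1297 against 1987 CPM in the FGF9-treated one. Rpl10l, which is known to stand in for Rpl10 in meiosis, was at 62.2 CPM (60.4 to 64.1) and 57.5 CPM (55.7 to 59.3), a ratio of -0.12 (-0.18 to -0.05). After thinning 26.4% of control and 23.7% of FGF9-treated cells had an Rpl10l UMI (59.4% and 51.8% without thinning), against 19.4% and 6.35% of the deeper feeder barcodes. The feeder shares carry the same limit of germ cell RNA.

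The other paralogs differed by small amounts where they were well counted. Rpl36al, the autosomal copy of Rpl36a, had a ratio of 0.11 (0.09 to 0.14), 0.22 above that of its parent. Rps27l, a known p53 target, also had 0.11 (0.08 to 0.14). It was higher in cells with a Ccng1 UMI (419 and 446 CPM) than in cells without one (282 and 305 CPM), and its ratio was 0.09 (-0.01 to 0.19) and 0.11 (0.06 to 0.17) in these cells. Rpl7l1, a more distant relative of Rpl7, had -0.11 (-0.15 to -0.06) while Rpl7 had 0.13 (0.12 to 0.14). Rpl3l, known from heart and skeletal muscle, gave 241 and 366 UMIs (3.56 and 5.46 CPM), a ratio of 0.62 (0.38 to 0.86) below the mean of 20 CPM, while Rpl3 had -0.01. Rps27rt, whose coding sequence is identical to that of Rps27, had 1055 and 1346 UMIs and cannot be told from it over most of its 3′ end; the sum of both had a ratio of 0.17 (0.10 to 0.25).

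**Figure D5:**
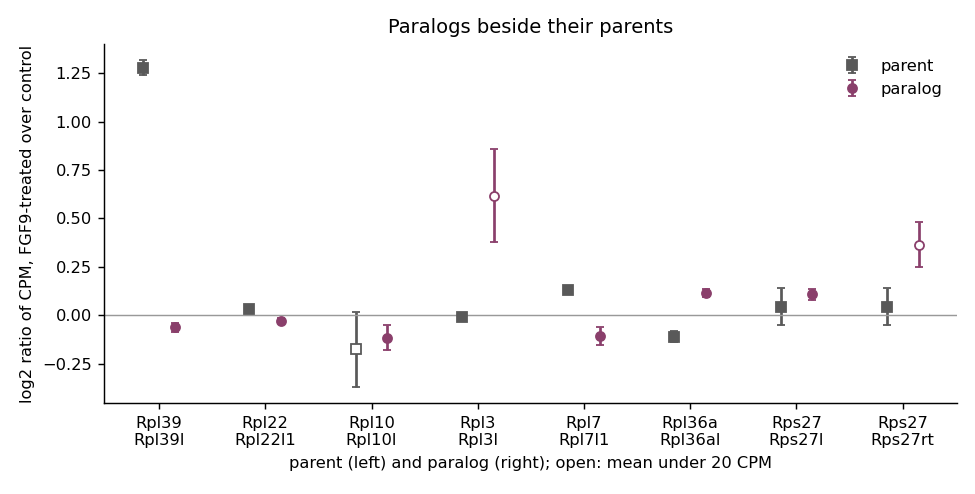
Squares give the log2 ratio, FGF9-treated over control, (vertical axis) of each parent gene and circles that of its paralog, with 95% counting intervals, in pairs along the horizontal axis; open symbols mark genes with a mean under 20 CPM. Only in the pair of Rpl39 (1.28) and Rpl39l (-0.06) does the parent lie far above its paralog, and Rpl3l (0.62) and Rps27rt (0.36) lie above their parents on few counts.

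Identity of the coding sequences did not mark the pairs that differed. Against its parent, Rpl36al was 87.9% identical, Rpl39l 85.3%, Rpl10l 84.8%, Rps27l 76.1%, Rpl3l 73.3%, Rpl22l1 66.9% and Rpl7l1 53.0%.

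Because the 5′ TOP motif is what the mRNAs of the set are known for, the 30 bases around the annotated start were searched for runs of pyrimidines. A run was taken wherever it lay in the window, so it need not begin at the start as the motif does. RefSeq starts on GRCm38.p6 were found for 57 of the 77 core genes. Windows run 5′ to 3′ over 15 bases on each side of the start, with the longest run of C and T in capitals, and are shown for the genes the ratios turn on.
Rpl39: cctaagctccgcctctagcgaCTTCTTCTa
Rpl39l: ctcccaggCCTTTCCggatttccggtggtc
Rpl22l1: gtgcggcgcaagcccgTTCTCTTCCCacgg
Rps28: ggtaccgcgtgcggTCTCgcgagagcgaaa
Rplp0: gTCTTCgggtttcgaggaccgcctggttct
A run of at least 8 pyrimidines was found in 25 of the 57 core genes (43.9%) and in 13.9% of 27025 genes with such a window. The letters TCTTTC on the strand of the gene were in 14.0% of core windows and in 1.3% of all. The windows lie at chrX:37085208-37085237 on the minus strand (Rpl39), chr16:10170213-10170242 on the plus strand (Rpl39l), chr3:28805493-28805522 on the plus strand (Rpl22l1), chr17:33824548-33824577 on the minus strand (Rps28) and chr5:115559452-115559481 on the plus strand (Rplp0). The run of Rpl39 had 8 bases, that of Rpl39l 7 and that of Rpl22l1 10, and those of Rps28 and Rplp0 had 4 and 5. The run of Rpl39 lay after the annotated start and that of Rpl39l before it. A run of letters is a description and not a measured start of an mRNA.

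The share of core ribosomal protein RNA did vary with the kind of cell. Thinned cells with an Mki67 UMI were 362 of 4141 in control and 1176 of 4515 with FGF9. Their share was 14.7% without and 14.3% with FGF9, and the median ratio over core genes was -0.04. In cells without an Mki67 UMI it was 15.5% and 16.5%, and the median ratio 0.11. By tertiles of depth the median ratio was 0.12 in the shallowest cells, 0.05 in the middle tertile and -0.02 in the deepest cells. The FGF9-treated library had more Mki67-positive and more shallow cells than the control, and the part of either in the small median ratio of the set was not tested. Cells with a Neurog3 UMI had shares of 15.4% and 15.9%, close to 15.4% and 15.9% in cells without one.

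Genes that match the name but encode no ribosomal protein were expressed at low levels, and 3 of the 11 reached a mean of 20 CPM. Among the S6 kinases of the RSK type, which ERK activates, Rps6ka3 had 23.5 and 31.6 CPM (ratio 0.42, 0.33 to 0.52), and Rps6ka1 had 18.2 and 21.8 CPM (0.26, 0.15 to 0.37). Rps6ka2 was found with 65 and 98 UMIs (0.61, 0.14 to 1.08), but shares 55.6% of its 3′ windows with Gm36684 and Sod2, so that its count is uncertain. Rps6ka6 had a ratio of -0.27 (-0.41 to -0.13). Rps6kb1 and Rps6kb2, the S6 kinases downstream of mTOR, had ratios of 0.05 (-0.02 to 0.13) and 0.04 (-0.10 to 0.19). Of the rest, Rps6ka5 had -0.18 (-0.31 to -0.05), Rps6kc1 -0.38 (-0.55 to -0.22), Rps19bp1 0.05 (-0.01 to 0.12), and Rps6kl1, with 114 and 39 UMIs, -1.53 (-2.10 to -0.998). Rps6ka4 had 2 and 1 UMIs, too few for a ratio.

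Beyond the name rule, Fau and Rack1 lay within the range of the core genes, with ratios of 0.07 (0.06 to 0.08) and 0.11 (0.10 to 0.12). Of 25 genes of ribosome biogenesis 20 had ratios below 0, 18 of them with the whole interval below it, where 3660 of all 6616 genes had ratios below 0 and 2893 such an interval. Past -0.25 there were 5, against the 15.7% of all genes, and the median of the list was -0.15. Polr1a, the largest subunit of RNA polymerase I, had the lowest ratio at -0.45 (-0.53 to -0.36), then Rrp9 at -0.37 and the PeBoW factor Bop1 at -0.31. Of 16 other mRNAs of the translation machinery the median was -0.07 and 1 passed -0.25: Eif4ebp1, whose product restrains cap-dependent translation, at -0.44 (-0.48 to -0.41), followed by the elongation factors Eef2 at -0.15 and Eef1d at -0.13.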

How the data were processed

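Single-cell RNA was measured in 2 libraries, 1 for control and 1 for FGF9-treated cells, so groups were taken from the labels and no test was run. The authors deposited raw UMI counts per gene and barcode, made with Cell Ranger 3.1.0 against mm10; the labels name Seurat 3.1 for later steps. Counting of 3′ ends does not scale with transcript length, and the deposited counts precede a cell filter, which was therefore applied here. No doublet caller was run, and the KIT antibody tag was not used here. Counts were summed over kept cells and divided by library totals to give CPM. CPM have exact Poisson intervals, ratios exact conditional binomial ones and shares Clopper-Pearson ones, which cover counting error only.

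The members and gene lists were chosen with earlier results of these data known. Named genes were those the selection singles out (Rpl39, Rpl39l, Rpl22l1, Rpl10l), all paralogs with their parents, the 6 highest and 6 lowest core genes with a mean of at least 20 CPM, Rps2, Rps6, Rplp0, X-linked and short core genes, the kinases and Rps19bp1, Fau, Rack1 and up to 3 genes of each further list with the largest ratio; the neighbours of Rpl39 were added after their values were seen. Some genes that this rule names are not reported here. Ratios and intervals were tested on simulated counts. Gene positions and transcripts came from GENCODE M21, in which 32158 of 32285 gene identifiers and all 96 members were found, and start windows from RefSeq on GRCm38.p6. Protein sequences were not used here. The alternatives were TMM factors of edgeR 4.0.16, size factors of DESeq2 1.42.0, totals without core genes, other filters on genes and cells, and other weights and depths of cells. Scripts ran in Python 3.11.15 with scipy 1.17.1 for the intervals, and in R 4.3.3.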

Additional observations from a re-analysis of the deposited data

Results flagged for a closer look

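Barcodes outside the cell filter took no part in the comparisons, and Rpl39 was counted there too. It stood at 186.5 CPM (172.9 to 200.8) in the 1359 FGF9-treated barcodes that failed the filter for reasons other than the feeder limit, above the 64.5 CPM (55.9 to 74.1) in the 1124 control barcodes of this kind. These barcodes had median depths of 2117 and 2194.5 UMIs, and core ribosomal protein genes gave 6.24% and 5.31% of their UMIs. The sum of the 8 feeder markers was also higher in the FGF9-treated barcodes of this kind, at 467.9 against 373.9 CPM, with Vim at 50.8 against 23.5 CPM and S100a6 at 202 against 165 CPM, and their part in the Rpl39 level was not tested.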

How the results depend on the processing

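No paired analysis was possible because each treatment has 1 library. No ratio past 0.25 in size changed sign under the 13 alternatives or the 3 chosen after seeing the data (cells without an Mki67 UMI, core genes with few shared windows, core genes without Rpl39), and the ratio of Rpl39 ranged from 1.20 to 1.41. The counts of 4 core genes above 0.25 and 0 below -0.25 stayed within 1.5 times of these values. Scaling and filters on genes do not enter the UMI shares. The small ratios of Rpl39l and Rpl22l1 did change sign, as the values below show. The cause of these shifts was not tested.

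TMM factors gave a median core ratio of 0.067, Rpl39l -0.028 and Rpl22l1 0.0058, and DESeq2 factors gave Rpl22l1 -0.015. With at least 3000 genes per cell the core shares were 15.42% in control and 15.64% in FGF9-treated cells. With at most 10% mitochondrial UMIs they were 15.74% and 15.92%, with a median of 0.017, Rpl39 1.20 and Rpl22l1 -0.086. With no limit on Vim and S100a6 the FGF9-treated share was 15.79%, Rpl39 1.35 and Rpl39l -0.087. Without barcodes over 2.5 times the median depth the shares were 15.41% and 15.76%, and Rpl22l1 -0.013. The mean of per-cell CPM gave a median of 0.059, an FGF9-treated share of 15.93% and Rpl22l1 -0.0071. Thinned cells gave a median of 0.059, an FGF9-treated share of 15.94%, Rpl39l -0.026, Rpl22l1 -0.0037 and Rpl10l -0.19. Every deposited barcode together gave shares of 14.98% and 15.30%, Rpl39 1.35, Rpl39l -0.088 and Rpl22l1 -0.040. Cells without an Mki67 UMI gave a median of 0.11, shares of 15.49% and 16.53%, Rpl39 1.41, Rpl39l 0.029 and Rpl22l1 0.11. Without Rpl39 the SD over core genes was 0.0958. Of 684 values for 49 other named genes, 552 stayed within the counting interval.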
